A study of Rattus norvegicus with 20 samples.

Results

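Myoepithelial cells form the basal layer of the mammary ducts and alveoli, and the genes described here are those that let them contract and those that keep their basal identity. The set named 8 genes: the contractile genes Acta2, Myh11, Cnn1, Tagln and Mylk, the oxytocin receptor Oxtr, and the basal regulators Tp63 and Sox10. Members were found on the array by the RefSeq accession of each probe, and 5 of the 8 genes were measured, by 6 probes, among 36043 genes tested, of which 8662 carried a symbol. Cnn1, Tagln, Oxtr and Sox10 had 1 probe each and Tp63 had 2, while Acta2, Myh11 and Mylk had no probe matched by accession and were not analysed here.

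The study compared mammary adenocarcinomas with normal mammary tissue in female Sprague-Dawley (Jcl:SD) rats that differed in weight gain on a fatty diet. Obesity-prone (OP) and obesity-resistant (OR) rats ate a diet with 45 kcal% fat and were separated by body weight at 7 weeks of age, and lean controls (LC) ate a diet with 10 kcal% fat. At that age the rats of every group received 4 Gy of Cs-137 gamma rays to the whole body at 0.5 Gy per min, and they were watched for palpable mammary cancer for 30 weeks on the same diet. RNA from frozen tissue gave 6 OP, 3 OR and 3 LC cancers and 3 OP, 2 OR and 3 LC normal tissues, 1 array each, 20 in all, and the labels take the normal tissues from age-matched rats. The cancers had been chosen for even histology without necrosis or marked infiltration. The labels do not say whether any cancer and normal tissue came from 1 rat, so each p-value reflects only how far these samples spread.

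Contraction of a myoepithelial cell starts when oxytocin binds Oxtr, a receptor coupled to Gq, and the calcium release that follows activates the myosin light chain kinase Mylk. The force comes from smooth muscle myosin (Myh11) on filaments of smooth muscle actin (Acta2), which calponin (Cnn1) and transgelin (Tagln) bind. Tp63 is the transcription factor that maintains basal epithelial cells, and Sox10 is a factor of mammary progenitor and basal cells that also serves Schwann cells of nerve. Cnn1 and Tagln are also made by vascular smooth muscle, so whole tissue reads both sources together, and fewer cells of a type cannot be told apart from less RNA per cell.

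Sequences just before the RefSeq starts (build GRCr8) of the receptor, a contractile gene and a basal regulator are shown because these members moved in different directions between cancer and normal tissue. Each is 250 bases long, 5′ to 3′ on the gene's strand, and capitals mark CCAAT boxes, the letters CCAAT on either strand. Other starts of these genes were not read, and which starts these tissues use was not tested. The regions were chr4:147170500-147170749 (minus strand) for Oxtr, chr8:28908187-28908436 (plus strand) for Cnn1 and chr11:88554178-88554427 (minus strand) for Tp63.
Oxtr: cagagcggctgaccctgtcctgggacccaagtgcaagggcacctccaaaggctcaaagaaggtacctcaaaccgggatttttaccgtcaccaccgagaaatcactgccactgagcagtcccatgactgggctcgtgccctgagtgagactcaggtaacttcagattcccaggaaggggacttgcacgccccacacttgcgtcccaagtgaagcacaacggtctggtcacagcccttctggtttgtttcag
Cnn1: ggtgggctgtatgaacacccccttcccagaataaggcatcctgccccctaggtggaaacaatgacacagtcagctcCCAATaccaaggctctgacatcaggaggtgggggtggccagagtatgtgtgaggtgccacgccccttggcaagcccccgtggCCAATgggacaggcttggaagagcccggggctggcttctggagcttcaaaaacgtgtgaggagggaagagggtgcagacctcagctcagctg
Tp63: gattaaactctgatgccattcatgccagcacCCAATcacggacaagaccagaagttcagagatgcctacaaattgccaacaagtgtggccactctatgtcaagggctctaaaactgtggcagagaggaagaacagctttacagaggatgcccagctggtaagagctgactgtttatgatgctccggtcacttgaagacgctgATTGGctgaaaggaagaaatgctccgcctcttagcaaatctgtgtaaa
Cnn1 held CCAAT at -174 and -92 from its start, Tp63 held it at -219 and, on the other strand, at -48, and the Oxtr window held none. Of 33469 rat promoter windows of 300 bases, 37.5% held a CCAAT box. No exact CArG box, a site of serum response factor, was found in the Oxtr, Cnn1, Tp63, Acta2 or Mylk windows (1.64% of all windows held one). Acta2 held 2 CArG-like sequences with 1 middle letter changed to G or C, at -134 and -84, and 8.1% of all windows held at least 1. Whether serum response factor binds these or other sequences in the windows was not tested. The letters TATAAA (14.2% of windows) were in none of the 5 windows, and of the letters AACAAT (11.7%) and ACAAAG (18.8%), only AACAAT was found, in Cnn1 at -194. These are matches of letters on both strands, and GC content in the 250 bases was 56.4% for Oxtr, 59.6% for Cnn1 and 47.2% for Tp63.

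Values are log2 levels after background correction and quantile normalization, and a level of 1 probe is not set against that of another. Between 61.3% and 79.3% of probes were well above background on the cancer arrays and between 87.7% and 97.7% on the normal tissue arrays, and the number of arrays limits the precision. The tissues differed widely in cell markers: all 14 luminal epithelial genes tested were higher in cancer (median difference 1.61, with 12 higher and 1 lower when arrays were scaled to a 75th percentile) and all 12 adipocyte genes were lower (median -4.55). In cancer minus normal, 62.4% of all genes tested passed an adjusted p of 0.05 (10439 higher, 12068 lower), so a call alone does not set a member apart. Among the normal tissues, LC normal tissues 1 and 3 stood apart, with a mean luminal level of 9.37 and 9.73 against 11.01 to 11.10 in the OP and OR normal tissues and 10.88 in LC normal tissue 2. Scaling also mattered: the median difference of all genes was -0.03 after quantile normalization and -1.50 when each array was scaled to the 75th percentile of its processed signal. The share of calls that were higher in cancer was 46.4% on the first scale and 18.1% on the second.

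**Figure D1:**
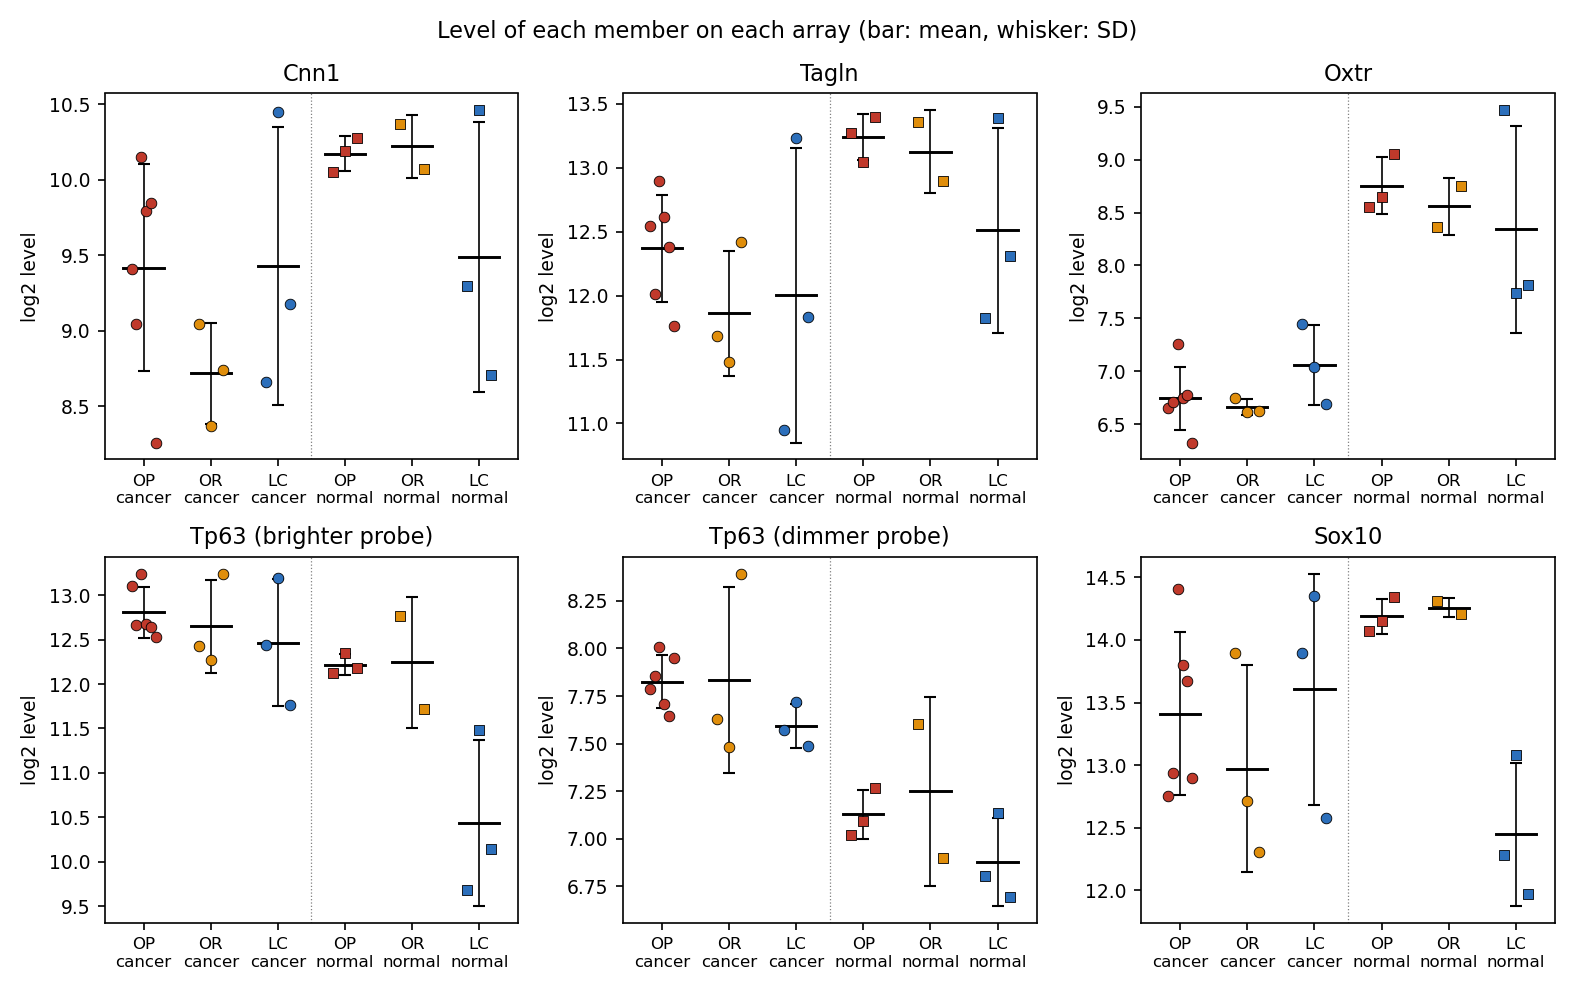
Log2 level of each member probe on each of the 20 arrays, by group, with circles for cancers and squares for normal tissues, bars for group means and whiskers for the SD. Among the member probes Oxtr is the only one whose 12 cancers all lie below its 8 normal tissues, a separation not counted over all genes. Tp63 and Sox10 are lowest in LC normal tissue.

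Oxtr, the receptor that starts the contraction, was lower in cancer in every obesity group. In OP cancers its level was 6.33 at the lowest, 6.73 at the median and 7.26 at the highest. The OR cancers were at 6.75, 6.62 and 6.62, and the LC cancers at 7.45, 7.04 and 6.69. In normal tissue the levels were 8.55, 8.65 and 9.06 in OP, 8.37 and 8.75 in OR, and 9.47, 7.74 and 7.81 in LC. All 12 cancers lay below all 8 normal tissues, and the highest cancer (7.45, LC 1) was just under the lowest normal tissue (7.74, LC 2). The share of all genes that separate the tissues in this way was not counted, so the separation does not set Oxtr apart from other genes. The log2 difference of Oxtr was -1.73 (SE 0.20, limma adjusted p 2.33e-06), a 3.31-fold lower level. Within the groups it fell by 2.01 in OP (SE 0.30, adjusted p 0.000125), by 1.90 in OR (SE 0.39, adjusted p 0.00225) and by 1.28 in LC (SE 0.35, adjusted p 0.00764). Signal well above background was read on 9 of 12 cancer arrays, with 3 of 6 in OP and every array in OR and LC, and on all 8 normal arrays. Within slides 1, 2 and 3, which held both tissues, the difference was -1.96, -1.54 and -1.79. Slide 1 held 1 OP and 1 LC cancer with 1 OP and 1 LC normal tissue. Slide 2 held 1 OP cancer and slide 3 held 1 OR cancer, each with 3 normal tissues, 1 per obesity group. Differences within slides 2 and 3 thus also mix obesity groups.

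The size of the Oxtr difference moved with the scaling, and its signal in cancer was dim. It was -3.83 (SE 0.36, adjusted p 1.47e-08) with the 75th percentile of the processed signal, which adds no offset, and -2.14 (SE 0.24) with a normexp offset of 16 in place of 50. Relative to the median of all genes it was -1.70 after quantile normalization and -2.33 on the 75th percentile scale. In LC the value rested partly on LC normal tissue 1, the highest of all arrays: without it the LC difference was -0.72 (SE 0.24, adjusted p 0.0280). Without both LC normal tissues 1 and 3, an exclusion chosen after the values were seen, it was -0.68, and the call was lost.

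The contractile genes Cnn1 and Tagln were lower in cancer by less than Oxtr, and their groups overlapped. Cnn1 was at 8.26, 9.60 and 10.15 (lowest, median, highest) in OP cancers, at 9.04, 8.37 and 8.74 in OR cancers and at 8.66, 10.45 and 9.18 in LC cancers. Its normal levels were 10.05, 10.19 and 10.28 in OP, 10.37 and 10.08 in OR, and 9.30, 10.46 and 8.71 in LC. The 5 OP and OR normal tissues lay close together and were reached by OP cancer 3 (10.15) and LC cancer 2 (10.45), while the LC cancers spread over 1.79 and the LC normal tissues over 1.75. The log2 difference of Cnn1 was -0.77 (SE 0.29, adjusted p 0.0269), 1.71-fold lower. As fitted, no single group passed the threshold for Cnn1, at -0.76 in OP (adjusted p 0.165), -1.50 in OR (adjusted p 0.0526) and -0.06 in LC (adjusted p 0.933). The OR value, which uses no other group's arrays but shares their estimate of spread, passed without any 1 of OP cancers 3 and 6, LC cancers 1 and 2 and LC normal tissues 2 and 3 (adjusted p 0.0317 to 0.0498). It passed too on the 75th percentile scale (-1.64, adjusted p 0.0394), on that scale after normexp (-1.36, adjusted p 0.0332), with an offset of 16 (-1.59, adjusted p 0.0465) and with array weights (-1.57, adjusted p 0.00697), and it missed by most without OR normal tissue 1 (-1.36, adjusted p 0.210).

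Tagln, an actin-binding protein of smooth muscle, was also lower in cancer. OP cancers were at 11.76, 12.46 and 12.90 (lowest, median, highest), OR cancers at 11.68, 11.48 and 12.42, and LC cancers at 10.95, 13.23 and 11.83. Normal tissues were at 13.27, 13.05 and 13.40 in OP, 13.36 and 12.89 in OR, and 11.83, 13.39 and 12.31 in LC. LC cancer 2 was the only cancer above the lowest OP normal tissue, and 4 cancers lay below every normal tissue. The log2 difference of Tagln was -0.88 (SE 0.28, adjusted p 0.0107), 1.84-fold lower, with -0.87 in OP (adjusted p 0.0978), -1.26 in OR (adjusted p 0.0869) and -0.51 in LC (adjusted p 0.413). Without LC cancer 2, the highest cancer, Tagln passed in OP (adjusted p 0.0427), in OR (adjusted p 0.0380) and, at -1.12, in LC (adjusted p 0.0493). It also passed with scan day as a block, at -1.23 in OP (adjusted p 0.0444) and -1.62 in OR (adjusted p 0.0461), and with array weights, at -0.82 (adjusted p 0.0415) and -1.27 (adjusted p 0.0296). Within slides 1, 2 and 3 the Tagln difference was -0.80, -1.25 and -1.19, and that of Cnn1 was -0.64, -1.30 and -0.64.

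Neither contractile call held under every processing. Tagln was at -0.70 (adjusted p 0.0532) on the 75th percentile scale, -0.61 (adjusted p 0.0662) on that scale after normexp and -0.70 (adjusted p 0.0557) in the authors' deposited table of values. Cnn1 was at -0.82 (adjusted p 0.0376), -0.61 (adjusted p 0.0528) and -0.82 (adjusted p 0.0395) under the same choices, and at -0.87 (adjusted p 0.114) with slide as a block. Cnn1 also lost its call without OR cancer 2 (-0.72), LC cancer 1 (-0.65), OR normal tissue 1 (-0.73) or LC normal tissue 2 (-0.61), with an adjusted p of at most 0.0715. Against the median of all genes, Cnn1 was lower by quantile normalization (-0.75) and higher on the 75th percentile scale (0.68), and Tagln likewise (-0.85 and 0.79), so their place among all genes turned with the scaling.

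Pericyte markers were lower in cancer, as Cnn1 and Tagln were, while few vascular smooth muscle markers passed in either direction. The part of either in the result was not tested. Of 12 pericyte markers listed, 10 were tested and 9 were lower in cancer (median -1.04), among them Cspg4, the NG2 proteoglycan, at -2.60, and the list averaged 9.80 to 10.94 in cancers against 10.91 to 12.00 in normal tissues. On the 75th percentile scale 9 pericyte markers were lower, with a median of -0.97 against -1.50 over all genes. The place of that list among all genes thus turned with the scaling. Of 5 vascular smooth muscle markers tested, 1 was higher and 1 lower (0 and 2 on the 75th percentile scale), with a median of -0.35. The vascular list averaged 9.69 to 10.72 in cancers and 10.34 to 10.75 in normal tissues. Of 10 fibroblast markers tested, 8 were lower and 0 higher.

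**Figure D2:**
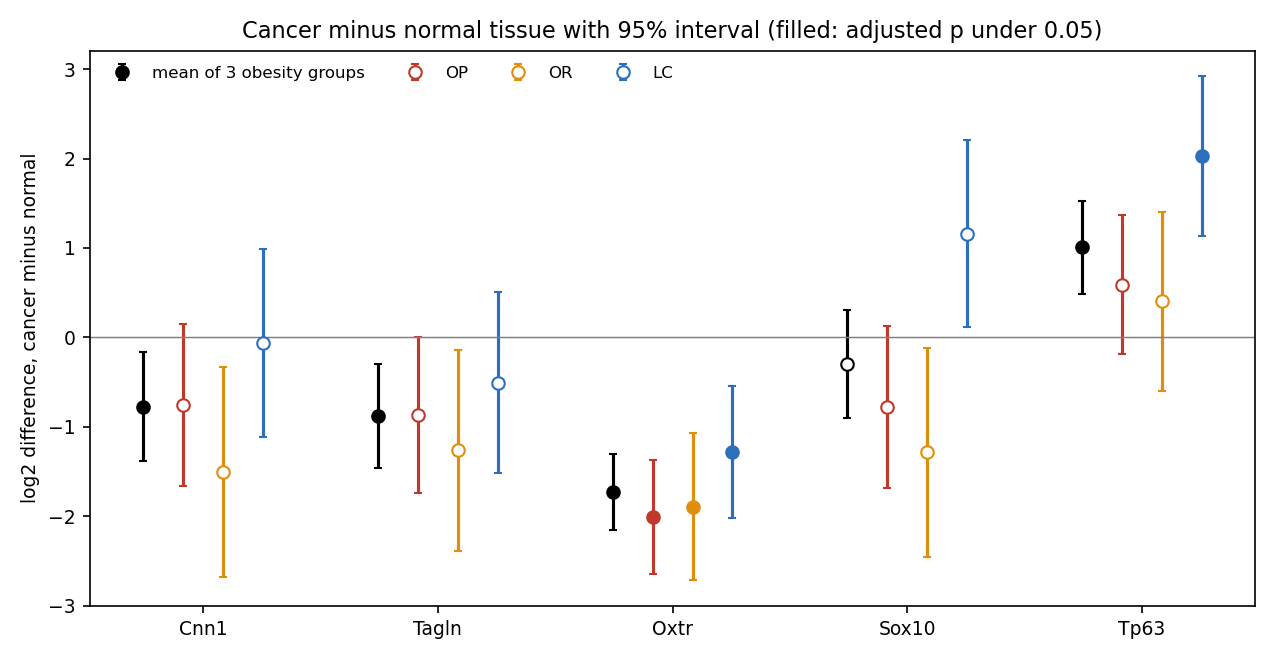
Log2 difference between cancer and normal tissue for the 5 members measured, over the 3 obesity groups together and in OP, OR and LC, with 95% intervals from limma and filled points where the adjusted p was under 0.05. Oxtr is below 0 throughout, while Sox10 lies at -0.78 in OP, -1.29 in OR and 1.16 in LC.

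Tp63, the basal regulator, was higher in cancer by its brighter probe, and as fitted the lean controls were the only group in which that probe passed alone. By that probe, OP cancers were at 12.52, 12.67 and 13.24 (lowest, median, highest), OR cancers at 12.43, 12.27 and 13.24, and LC cancers at 12.44, 13.19 and 11.77. Normal levels were 12.12, 12.35 and 12.18 in OP, 12.76 and 11.72 in OR, and 9.69, 11.49 and 10.14 in LC. The cancers of the 3 groups overlapped, and the 3 LC normal tissues were the lowest of all 20 arrays. The log2 difference of Tp63 was 1.01 (SE 0.24, adjusted p 0.00191), 2.01-fold higher, and it rose by 2.03 in LC (SE 0.42, adjusted p 0.00141). In OP the difference was 0.59 (SE 0.37, adjusted p 0.205), which passed on the 75th percentile scale after normexp (0.90, adjusted p 0.0360), and in OR it was 0.40 (SE 0.47, adjusted p 0.560). Within slides 1, 2 and 3 the Tp63 difference was 1.87, 0.46 and 1.08. Slides 2 and 3 had an LC normal tissue but no LC cancer. The test of LC against the mean of OP and OR, which was not among the planned comparisons, gave 1.53 (SE 0.52, adjusted p 0.286), so the groups were not shown to differ. Without LC normal tissues 1 and 3 the LC difference was 0.98 and the difference over all groups 0.66. These 2 tissues were picked after the values were seen, because their Tp63 and Sox10 were lowest. Leaving out the lowest normal tissues makes the Tp63 difference smaller by construction.

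A second, dimmer Tp63 probe did not follow the first in every respect. Its levels were 7.64 to 8.01 in OP cancers, 7.48 to 8.39 in OR cancers and 7.49 to 7.72 in LC cancers, against 7.02 to 7.27, 6.90 to 7.60 and 6.69 to 7.14 in the normal tissues of those groups. By this probe Tp63 rose by 0.67 (SE 0.12, adjusted p 0.000158), by 0.70 in OP (SE 0.18, adjusted p 0.00539) and by 0.71 in LC (SE 0.21, adjusted p 0.0113), with 0.58 in OR (SE 0.23, adjusted p 0.0699). The LC normal tissues were not set apart as strongly as by the first probe, since OP minus LC was 0.25 (SE 0.21, adjusted p 0.816) in place of 1.78. On the 75th percentile scale only the brighter probe passed, at 1.21 (SE 0.28, adjusted p 0.000697). The dimmer probe was at -0.16 (SE 0.24, adjusted p 0.539), where the median of all genes was -1.50. Relative to the median of all genes, the brighter probe was at 1.03 after quantile normalization and 2.70 on the 75th percentile scale. Which transcripts of Tp63 each probe reads was not examined here.

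Sox10, the other basal regulator, did not pass the threshold between cancer and normal tissue over the 3 groups, and its groups pointed in different directions. OP cancers were at 12.75, 13.30 and 14.40 (lowest, median, highest), OR cancers at 13.89, 12.71 and 12.31, and LC cancers at 13.89, 14.35 and 12.58. In normal tissue the levels were 14.07, 14.15 and 14.35 in OP, 14.31 and 14.21 in OR, and 12.28, 13.08 and 11.97 in LC. The 5 OP and OR normal tissues lay at 14.07 to 14.35, with 2 cancers reaching them, and the 3 LC normal tissues (11.97 to 13.08) lay in the lower part of the range of the cancers or under it. The difference over all groups was -0.30 (95% interval -0.91 to 0.30, adjusted p 0.373), and it was 0.02 with slide as a block. In OP it was -0.78 (adjusted p 0.151), in OR -1.29 (adjusted p 0.0932) and in LC 1.16 (adjusted p 0.0680). Against the median of all genes, the difference over all groups was -0.28 after quantile normalization and 1.45 on the 75th percentile scale. The place of Sox10 among all genes thus turned with the scaling. The OR value passed without OR cancer 1 (-1.75, adjusted p 0.0365), and the LC value without LC cancer 3 (1.68, adjusted p 0.0148) or LC normal tissue 2 (1.48, adjusted p 0.0397). The LC value also passed on the 75th percentile scale (1.39, adjusted p 0.0279), on that scale after normexp (1.21, adjusted p 0.0391), in the authors' deposited table of values (adjusted p 0.0329) and at 1.90 (adjusted p 0.0194) with the slide blocked, and the OR value with array weights (-1.41, adjusted p 0.0163). Within slides 1, 2 and 3 the Sox10 difference was 0.14, -0.91 and 0.39. The cancer on slide 3, OR 1 (13.89), lay below the OP (14.35) and OR (14.21) normal tissues of that slide and above the LC one (11.97). In the unplanned comparison of LC against the mean of OP and OR, the value was 2.19 (SE 0.61, unadjusted limma p 0.00224, adjusted p 0.180), which did not pass.

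Sox10 is also a Schwann cell gene, and markers of nerve were read beside it. Of 15 Schwann and nerve genes tested of 16 listed, 8 were lower and 4 higher in cancer, and on the 75th percentile scale 11 were lower and 1 higher. Pmp22, a gene of peripheral myelin, fell by 2.39 (SE 0.21, adjusted p 1.12e-07), and Mag, a myelin-associated glycoprotein, fell by 0.71 (SE 0.07, adjusted p 5.17e-07). Among those that rose were the receptor Erbb3 (0.67, adjusted p 3.28e-06), the adhesion molecule L1cam (0.94, adjusted p 1.13e-05) and the transcription factor Egr2 (1.07, adjusted p 0.00062), of which Erbb3 was at -0.19 and L1cam at 0.32 on the 75th percentile scale, neither past the threshold. S100b and Cdh19 were well above background on 0 of 12 cancer arrays, and on 8 and 6 of the 8 normal arrays. The list averaged 7.74 to 8.09 in cancers and 8.30 to 8.79 in normal tissues, and in LC normal tissues, where Sox10 was low, the average was 8.30 to 8.79.

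Calls of members are read against the rate over all genes, which was high. In cancer minus normal, 4 of the 5 measured members passed, beside 62.4% of all genes. In OP 1 of 5 passed beside 44.6%, in OR 1 of 5 beside 28.4%, and in LC 2 of 5 beside 43.6%. The test of whether OP differed from the mean of OR and LC called no member and 0% of genes (1547 genes at an unadjusted p under 0.05). The same test for LC against the mean of OP and OR, which was not planned, called no member and 0.114% of genes, 41 in number. That count ran from 0 to 1469 when single arrays were left out, with 1469 without LC normal tissue 1, where the Oxtr value became 1.24 (adjusted p 0.0240), and from 0 to 2090 under the other settings, with 2090 under array weights.

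Among the cancers no member passed the threshold between obesity groups. OP minus OR, OP minus LC and OR minus LC each called 0% of genes by limma, with 3926, 2599 and 1510 genes at an unadjusted p under 0.05. The order of the group means for Oxtr was LC (7.06 ± 0.38 SD, n = 3), OP (6.74 ± 0.30, n = 6) and OR (6.66 ± 0.07, n = 3), and neighbours did not differ beyond their spread. Cnn1 was at 9.43 ± 0.92 in LC, 9.42 ± 0.69 in OP and 8.72 ± 0.34 in OR, with OP minus OR at 0.70 (95% interval -0.27 to 1.67, adjusted p 0.574). Tagln was at 12.37 ± 0.42 in OP, 12.00 ± 1.15 in LC and 11.86 ± 0.49 in OR, with OP minus OR at 0.51 (95% interval -0.43 to 1.45, adjusted p 0.674). For Tp63 the order was OP (12.81 ± 0.29), OR (12.65 ± 0.52) and LC (12.47 ± 0.71), and for Sox10 it was LC (13.61 ± 0.92), OP (13.41 ± 0.65) and OR (12.97 ± 0.82). The intervals do not show that the groups were alike. Slide 4 held only OP cancers (4 of the 6), and slide 5 held 2 OR and 2 LC cancers, so slide and obesity group cannot be fully told apart. Over the alternative settings OP minus OR ran from 0.53 to 2.01 for Cnn1 and from 0.32 to 2.18 for Tagln, never past the threshold.

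In normal tissue no member passed the threshold between obesity groups, with the values farthest from 0 between LC and the high-fat groups. OP minus OR was between -0.07 and 0.19 for the 5 members and called 0% of genes (221 at an unadjusted p under 0.05). OP minus LC was 1.74 for Sox10 (SE 0.27, adjusted p 0.179) and 1.78 for Tp63 (SE 0.49, adjusted p 0.327), and OR minus LC was 1.81 for both (adjusted p 0.203 and 0.394). Each of these comparisons called 0% of genes, with 3177 and 3235 at an unadjusted p under 0.05. The mean of OP and OR minus LC, a comparison added after the values were seen, gave 1.78 for Sox10 (SE 0.25, adjusted p 0.0780) and 1.79 for Tp63 (SE 0.44, adjusted p 0.187), 0.71 for Cnn1, 0.67 for Tagln and 0.32 for Oxtr. With all 20 arrays in 1 fit Tp63 passed in it (adjusted p 0.0236). It called 0% of genes too, with 4378 at an unadjusted p under 0.05. Sox10 passed in it without LC normal tissue 1 (1.70, adjusted p 0.0356) or 2 (2.10, adjusted p 0.0273), and Oxtr without LC normal tissue 1 (0.88, adjusted p 0.0476). Sox10 also passed in OP minus LC without LC normal tissue 2 (2.06, adjusted p 0.0456).

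The level of luminal genes moved with these differences, and its part was not tested. LC normal tissues 1 and 3 had the lowest luminal levels (9.37 and 9.73) and the lowest Tp63 (9.69 and 10.14), Sox10 (12.28 and 11.97), Cnn1 (9.30 and 8.71) and Tagln (11.83 and 12.31) of the normal tissues. LC normal tissue 2, at a luminal level of 10.88, matched the high-fat normal tissues in Cnn1 (10.46) and Tagln (13.39) but lay below them in Sox10 (13.08). With tissues 1 and 3 left out, a choice made after their low Tp63 and Sox10 were seen, Sox10 was lower in the 1 remaining LC tissue by 1.14. A single tissue has no spread of its own, so a test of this value assumes that it varies like the others. Oxtr did not follow the luminal genes: it was highest in LC normal tissue 1 (9.47), where the pericyte markers also averaged highest, at 12.00 against 10.91 to 11.62 in the other normal tissues. This was not particular to pericytes. Fibroblast (14.44), endothelial (10.00), adipocyte (12.74), nerve (8.79) and vascular smooth muscle (10.75) markers also averaged highest in that tissue among the normal tissues. The smooth muscle and skeletal muscle lists did not. Basal and myoepithelial genes other than the members averaged 10.47, 10.35 and 9.73 in the 3 LC normal tissues and 10.64 to 10.83 in the others.

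**Figure D3:**
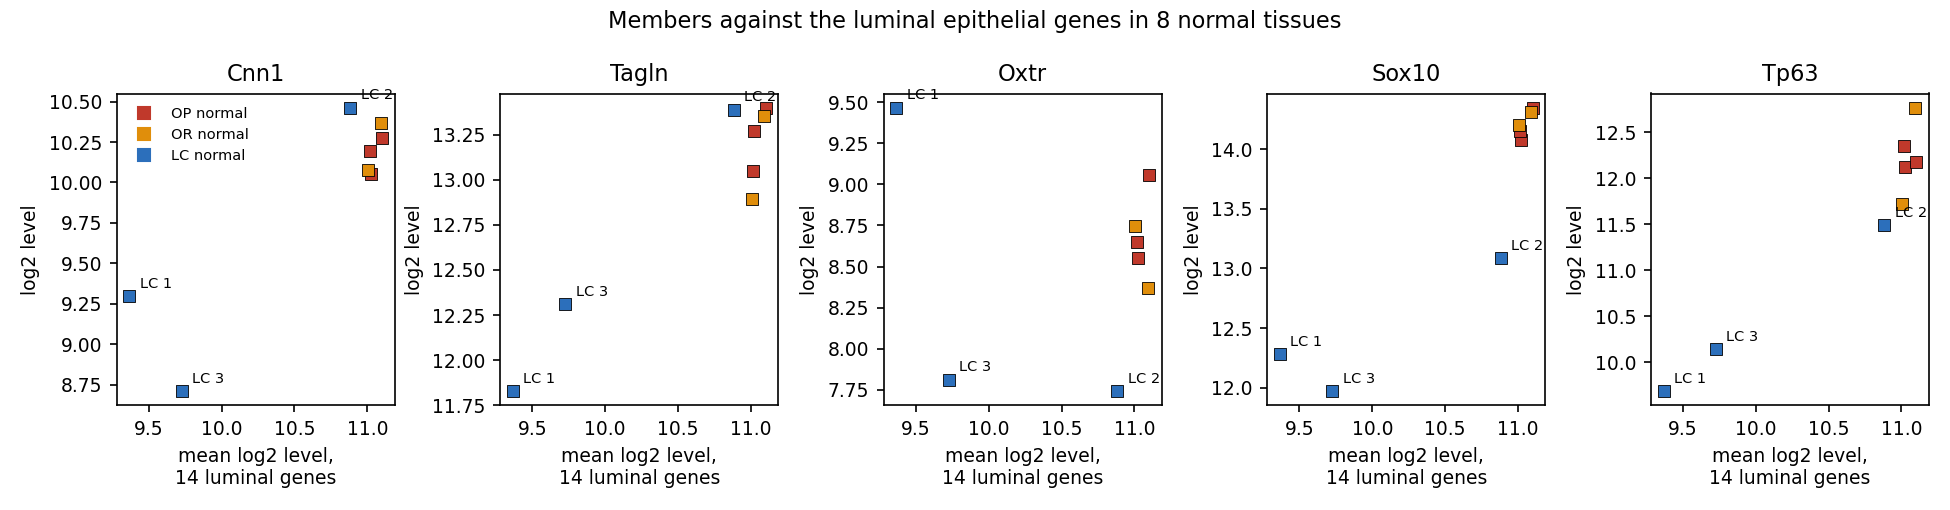
Log2 level of each member against the mean log2 level of 14 luminal epithelial genes in the 8 normal tissues, with LC tissues numbered. LC 1 and LC 3 lie to the left, at 9.37 and 9.73, and are low in Cnn1, Tagln, Sox10 and Tp63, while Oxtr is highest in LC 1.

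Over the 12 cancers, 3 of the 10 pairs of members were correlated after adjustment over the 10 pairs. Cnn1 and Tagln rose and fell together (Pearson r 0.83, permutation p 0.00120, adjusted p 0.012, Spearman rho 0.83, permutation p 0.00157, adjusted p 0.00697). Without the 2 cancers farthest from the median of the first gene named in the pair, r was 0.67. The second gene of a pair had no such check. In the 8 cancers of scan day 1, r was 0.88 for Cnn1 and Tagln. Tagln and Tp63 gave r 0.72 (permutation p 0.00825, adjusted p 0.0275, rho 0.82, permutation p 0.00209, adjusted p 0.00697), 0.76 without 2 cancers and 0.78 on scan day 1. Oxtr and Sox10 gave r 0.71 (permutation p 0.0053, adjusted p 0.0265, rho 0.83, permutation p 0.00158, adjusted p 0.00697), 0.68 without 2 cancers and 0.79 on scan day 1. Oxtr was dim in the cancers, well above background on 9 of 12 arrays, so its correlations rest partly on values near the floor. How often other pairs of genes correlate this strongly was not counted. The basal regulators Tp63 and Sox10 did not pass (r 0.28, permutation p 0.374, adjusted p 0.467, rho 0.21, permutation p 0.515, adjusted p 0.572), nor did Tagln and Oxtr (r 0.03, permutation p 0.924, adjusted p 0.924, rho 0.22, permutation p 0.481, adjusted p 0.572). These low values were not stable: without 2 cancers r was 0.41 for Tp63 with Sox10 and 0.61 for Tagln with Oxtr, and on scan day 1 it was 0.51 and 0.78. Other pairs that did not pass were also high on scan day 1, with r 0.88 for Cnn1 with Sox10, 0.86 for Cnn1 with Oxtr and 0.80 for Tagln with Sox10. Over the 12 cancers Cnn1 with Sox10 had r 0.67 (permutation adjusted p 0.0528). With Tp63, Cnn1 gave 0.45 and Oxtr 0.52 on scan day 1. Scan day 2 held 4 cancers, too few for a value of its own. No correlation is given over the normal tissues, since LC tissues 1 and 3 form a cluster of their own.

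**Figure D4:**
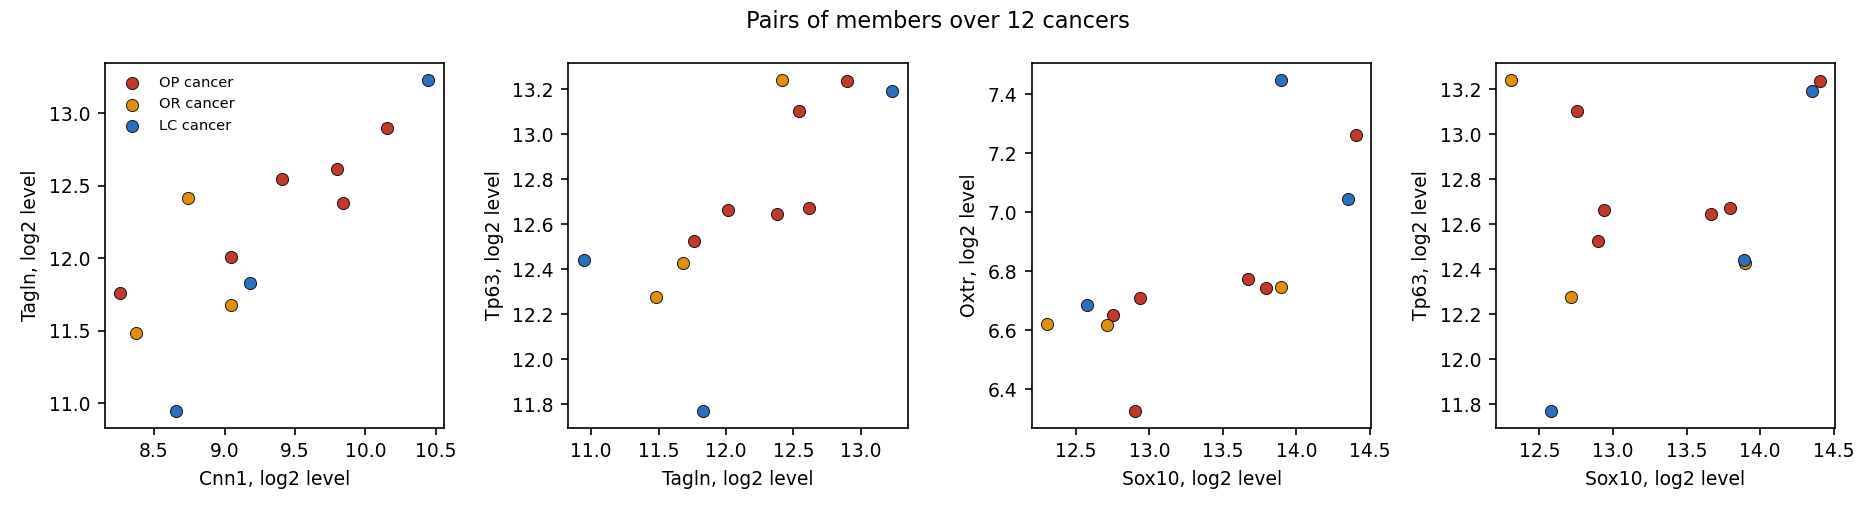
Log2 levels of 4 pairs of members in the 12 cancers, each point 1 cancer, coloured by obesity group. Cnn1 with Tagln (r 0.83), Tagln with Tp63 (r 0.72) and Oxtr with Sox10 (r 0.71) rise together, and Tp63 with Sox10 has r 0.28.

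The named genes most like each member over the 12 cancers were chosen as the 3 highest of 8657 correlations, so they are a description without a test. For Tagln the nearest was Tpm2, a tropomyosin of the contractile filament (r 0.92, rho 0.94, 0.87 without 2 cancers), before Mycn (r 0.88) and Zbtb7a (r 0.87). For Tp63 it was Id4, an inhibitor of basic helix-loop-helix factors (r 0.84, rho 0.80, 0.74 without 2 cancers), before Or6c208b and Wrnip1 (both r 0.83). Sox10 was nearest to Qsox1, a sulfhydryl oxidase (r 0.96, rho 0.87, 0.95 without 2 cancers), then Ptger3 and Zbed3 (both r 0.93). Cnn1 was nearest to Mgll, a monoacylglycerol lipase (r 0.89, rho 0.80, 0.79 without 2 cancers), then Or7e169c and Afap1 (both r 0.88). Oxtr was nearest to Zfp672 (r 0.91, rho 0.92, 0.78 without 2 cancers), then Cacng7 (r 0.88) and Tns4 (r 0.87).

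Other smooth muscle and contractile genes moved in both directions in cancer. Of 49 listed, 25 were tested, 13 were lower and 5 higher, with a median of -0.20 against -0.03 over all genes. On the 75th percentile scale 15 were lower and 3 higher, where 23866 of all genes were lower and 5262 higher, and the list median was -0.81 against -1.50, so its place among all genes turned with the scaling. The integrin Itga7 fell by 5.08 (SE 0.33, adjusted p 6.27e-09), the amine oxidase Aoc3 fell by 2.71 (SE 0.17, adjusted p 6.02e-09) and Ppp1r14a, an inhibitor of myosin phosphatase, fell by 1.58 (SE 0.15, adjusted p 3.05e-07). Fhl2, a LIM domain protein, rose by 1.53 (SE 0.35, adjusted p 0.00120). Lpp (0.46) and Casq2 (0.42) also passed as higher, but on the 75th percentile scale they were at -0.39 and -0.68.

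The signalling genes downstream of Oxtr moved in both directions. Of 28 listed, 21 were tested, 9 were higher and 4 lower in cancer (median 0.14), and on the 75th percentile scale 8 were higher and 8 lower. Itpr3, a calcium release channel, rose by 1.98 (SE 0.15, adjusted p 3.45e-08), the small GTPase Rhoa rose by 1.22 (SE 0.12, adjusted p 3.81e-07) and the phospholipase Plcb3 rose by 0.99 (SE 0.11, adjusted p 1.29e-06). Among those that fell were Arrb1, a beta-arrestin (-1.02, adjusted p 2.90e-05), the calmodulin gene Calm3 (-0.71, adjusted p 3.28e-05) and the receptor kinase Grk5 (-0.56, adjusted p 0.000262).

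Other basal and myoepithelial genes divided evenly. Of 53 listed, 27 were tested, 9 were higher and 9 lower (median 0.25), and on the 75th percentile scale 9 were higher and 11 lower. Krt5, the basal keratin, rose by 2.41 (SE 0.39, adjusted p 5.89e-05), Id4 rose by 1.65 (SE 0.23, adjusted p 1.31e-05) and the laminin chain Lama3 rose by 0.43 (SE 0.09, adjusted p 0.000462), though Lama3 was at 0.14 (adjusted p 0.453) on the 75th percentile scale. Mme, the surface peptidase CD10, fell by 2.19 (SE 0.21, adjusted p 3.25e-07), the protein C receptor Procr fell by 2.07 (SE 0.24, adjusted p 2.18e-06) and the caveolar protein Cav1 fell by 0.78 (SE 0.11, adjusted p 1.43e-05). In OP 2 were higher and 8 lower, in OR 2 and 5, and in LC 10 and 5. Beside these lists, proliferation genes were higher in cancer in all 9 tested (8 on the 75th percentile scale), 1 of 11 skeletal muscle genes was lower (7 on that scale) and 0 were higher, and of 7 endothelial genes 5 were lower and 1 higher (5 and 0 on that scale).

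**Figure D5:**
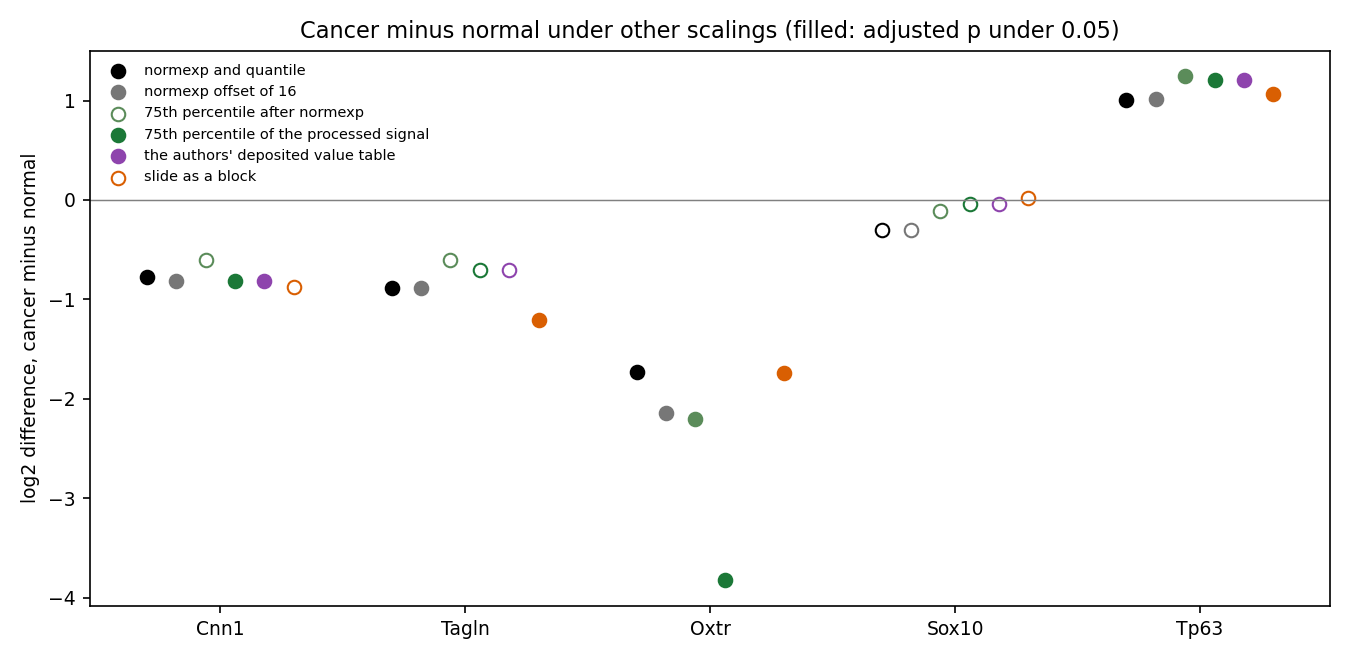
Log2 difference between cancer and normal tissue for each member under 6 ways of scaling or blocking, filled where the adjusted p was under 0.05. Oxtr and Tp63 (brighter probe) stay filled in each setting drawn, Cnn1 and Tagln do not, Oxtr reaches -3.83 on the 75th percentile of the processed signal, and Oxtr was not analysed in the authors' deposited table.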

How the data were processed

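Total RNA had been labelled with Cy3 and hybridised to 1-colour Agilent rat arrays, 1 sample each. Per the file headers, the scanner files hold spot and background intensity and 0 or 1 quality flags (other). The headers name scanner software version 9.5.1.1, and the submitters' processing notes Agilent Feature Extraction 10.7.3.1. The value table the authors deposited is on a log2 scale: compared with the scanner files it matched the processed signal, in log2, scaled to a 75th percentile in each array and centred per probe (correlation 0.999998), with higher values for brighter spots, and Oxtr was not analysed in it. Its columns' scale and centring were found from the data and not stated.

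In R 4.3.3 with limma 3.58.1, median spot and background signals (used because the mean signal planned was not a column of the files) were corrected by normexp (offset 50) and quantile-normalized. Of 41012 probes, 115 with outlier marks and 825 that were dim (well above background on under 0.5 of the arrays of every group) were left out. The brightest probe stood for a gene. Names came from RefSeq tables (GRCr8) by accession. All 20 arrays were fitted for cancer against normal (14 residual degrees of freedom), cancers alone (9) and normal tissues alone (5) for the rest, with Benjamini-Hochberg adjustment over 36043 genes. Cancer minus normal weighs the 3 obesity groups equally. Alternatives were other scalings, filters, blocks, weights and each array left out. Correlations used 100000 permutations in Python 3.11.15 (scipy 1.17.1). The fit was tested on simulated data.

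The members and lists were chosen with earlier results of these data known. Named genes were the members, and in each list those with the 3 smallest p-values in each direction among calls, plus the 3 genes most like each member; S100b and Cdh19 were named as defining markers after their values were seen, and 1 gene that the rule names is not reported here. Replicate numbers did not pair samples: of 40 same-numbered pairs across groups, 5 had a correlation of deviations over 0.1 (range -0.35 to 0.28). The highest correlation between 2 arrays was 0.993. Slides 1 to 3 held both tissues, slides 4 and 5 only cancers of the other scan day.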

Additional observations from a re-analysis of the deposited data

How the results depend on the processing

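Over 31 alternatives (30 for Oxtr), cancer minus normal stayed past the threshold in 30 for Oxtr (-3.83 to -1.53), 31 for Tp63 (0.66 to 1.25), 28 for Tagln (-1.24 to -0.61), 24 for Cnn1 (-1.10 to -0.61) and 0 for Sox10 (-0.51 to 0.02). For Tp63 these read the brighter probe, apart from the setting that took the mean of all probes. The dimmer Tp63 probe alone was at -0.16 (limma adjusted p 0.539) on the 75th percentile scale, where the median of all genes was -1.50. The replicate block ended the Cnn1 call (-0.73, adjusted p 0.0545) and no other call of a member in that comparison.

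Of the 5 members, 4 were called in cancer minus normal; 2 were called on the 75th percentile after normexp and in the authors' deposited table, where Oxtr was not analysed. In OP, in place of 1, the count was 2 on the 75th percentile after normexp, with scan day as a block and with array weights, and 0 in the deposited table; leaving out single arrays gave 1 to 2. In OR, in place of 1, it was 2 on both 75th percentile scales, with an offset of 16, with scan day as a block and without LC normal tissues 1 and 3, 4 with array weights and 0 in the deposited table; leaving out single arrays gave 1 to 3. In LC, in place of 2, it was 3 on both 75th percentile scales and with slide as a block, and 0 without LC normal tissues 1 and 3. In normal tissue, in place of 0, it was 1 without those tissues for OP minus LC, OR minus LC and their mean, 1 with all 20 arrays in 1 fit for the mean, 0 to 1 without single arrays for OP minus LC and 0 to 2 for the mean. For LC against the mean of OP and OR it was 0 to 1 without single arrays. Leaving out an OR normal tissue, or LC normal tissues 1 and 3 together, leaves 1 array, assumed to vary like the others. The exclusion of LC normal tissues 1 and 3 together was not planned and was chosen after the values were seen.

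Of all genes, 22507 were called in cancer minus normal (12428 to 29335 under other settings), 16062 in OP (8732 to 25644), 10244 in OR (3587 to 24085, the lowest with 1 array left out) and 15701 in LC (9320 to 25184). The 0 called became up to 214 among cancers, up to 1968 among normal tissues and up to 401 for OP against the mean of OR and LC. The causes were not tested. Dim signal limits Oxtr in cancer.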
